A study of Rattus norvegicus with 50 samples.

Results

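The genes described here encode splicing factors and heterogeneous nuclear ribonucleoproteins (hnRNPs), and their transcripts were followed in the blood of rats over 28 days. The members are all probe sets on the array with a single gene symbol that starts with Hnrnp, Srsf, Sf3a, Sf3b, Snrp, U2af or Celf in the annotation of the platform. They are 49 probe sets for 48 genes, out of 36685 probe sets, of which 14824 carry 1 gene symbol, for 14557 genes in all. The Hnrnp family has 20 probe sets for 19 genes, since Hnrnpa1 is measured by 2, and the Srsf family has 6, the Sf3 family 8, the Snrp family 11 and the Celf family 4. No probe set with a single symbol was named U2af, and Hnrnpk, Srsf1, Srsf3 and Snrpn were also not named by a single symbol here. Hnrnpa1-ps20, Hnrnpl-ps2 and Snrpe-ps1 are annotated as pseudogenes, and splicing factor genes have many near-identical copies in the genome, so the source of the signal of these probe sets, and of Snrpepl2 and Snrpgl2, is uncertain.

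Blood was drawn from the tail vein of male Wistar rats on days 0, 2, 14, 21 and 28, and RNA of whole blood was hybridized to 50 arrays, 1 per sample. In 6 rats, monosodium iodoacetate (MIA), which blocks glycolysis in cartilage cells and leads to osteoarthritis, was injected into a knee joint after the draw of day 0. The 4 naive rats received no injection, so no group had an injection of vehicle alone and an effect of injection cannot be told apart from one of MIA. Each group of MIA rats holds 6 arrays, except day 21 with 5, and each group of naive rats holds 4. Whole blood mixes nucleated leukocytes, reticulocytes, red cells and platelets, and fewer cells of a type and less RNA per cell cannot be told apart in it.

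Splicing removes introns from nuclear transcripts. Small nuclear ribonucleoproteins (snRNPs), built on rings of Sm proteins, recognize the splice sites, and the SF3A and SF3B complexes of the U2 snRNP hold the branch point. SR proteins bind exons and favour their inclusion, whereas hnRNPs coat the transcript and often act against them, and CELF proteins bind GU-rich RNA in the nucleus and the cytoplasm. In blood these factors work in nucleated cells, and in lymphocytes they set the isoforms of surface receptors, as hnRNP LL does for CD45.

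The array of MIA day 21 replicate 4 stood apart from the rest. The standard deviation over its log2 signals was 1.00, against 1.80 to 1.99 on the other 49 arrays, and its mean correlation with them was 0.243, where theirs ranged from 0.920 to 0.954. It was left out of every value below unless stated. Changes are differences of group means of log2 signals, so that a change of 1 is a 2-fold difference, and a probe set was called at an adjusted p under 0.05 over all probe sets in limma. Of the 49 members, 44 had a mean signal above the median of all probe sets, 2.26, and 5 were below it.

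To show the sequence context of the called members, promoter windows were taken from RefSeq, build GRCr8, from 250 bases before to 50 after an annotated start. The table holds 43 windows for 41 of the 48 genes, and Celf2, Hnrnpa1-ps20, Hnrnpl-ps2, Hnrnpll, Sf3b2, Snrpe-ps1 and Snrpgl2 have none in it. The 5 windows printed belong to the members called at day 28 whose annotated start lies within 1000 bases of the outer start of the gene, while the window of Celf1 lies further inside its gene and is not shown. Capitals mark CCAAT boxes (CCAAT), GC boxes (GGGCGG), E-boxes (CACGTG) and TATA boxes (TATAAA), found on both strands; the ETS core (CCGGAAG) and the cAMP response element (TGACGTCA) were searched for too and gave no match in these 5. The letters of the E-box and of the cAMP response element read the same on both strands.
Hnrnpm, chr7:15178822-15179121, minus strand: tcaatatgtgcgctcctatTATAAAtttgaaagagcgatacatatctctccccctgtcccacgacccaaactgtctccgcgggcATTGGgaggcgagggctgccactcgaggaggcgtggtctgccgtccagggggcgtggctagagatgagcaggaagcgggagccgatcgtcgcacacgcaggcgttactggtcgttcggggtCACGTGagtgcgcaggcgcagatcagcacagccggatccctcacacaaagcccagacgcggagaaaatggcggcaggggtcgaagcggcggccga
Hnrnph2, chrX:102073999-102074298, plus strand: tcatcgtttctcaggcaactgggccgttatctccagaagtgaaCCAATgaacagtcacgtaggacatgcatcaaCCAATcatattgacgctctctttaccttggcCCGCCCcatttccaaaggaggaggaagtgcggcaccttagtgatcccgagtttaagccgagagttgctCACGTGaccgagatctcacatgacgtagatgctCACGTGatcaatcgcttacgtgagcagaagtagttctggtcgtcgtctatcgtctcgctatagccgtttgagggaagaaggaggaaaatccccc
Hnrnpr, chr5:153826269-153826568, plus strand: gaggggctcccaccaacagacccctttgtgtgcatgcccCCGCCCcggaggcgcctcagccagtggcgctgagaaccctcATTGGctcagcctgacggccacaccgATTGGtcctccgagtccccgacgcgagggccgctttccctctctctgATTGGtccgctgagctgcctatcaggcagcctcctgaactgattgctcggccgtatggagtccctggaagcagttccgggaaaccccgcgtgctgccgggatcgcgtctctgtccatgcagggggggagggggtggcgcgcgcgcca
Hnrnpul2, chr1:215142500-215142799, plus strand: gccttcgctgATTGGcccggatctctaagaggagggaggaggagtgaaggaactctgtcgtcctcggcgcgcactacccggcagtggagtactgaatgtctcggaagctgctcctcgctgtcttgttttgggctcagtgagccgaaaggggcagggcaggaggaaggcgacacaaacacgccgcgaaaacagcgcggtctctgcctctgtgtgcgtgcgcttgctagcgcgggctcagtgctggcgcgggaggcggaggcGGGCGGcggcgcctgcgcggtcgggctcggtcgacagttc
Snrpd2, chr1:87926159-87926458, plus strand: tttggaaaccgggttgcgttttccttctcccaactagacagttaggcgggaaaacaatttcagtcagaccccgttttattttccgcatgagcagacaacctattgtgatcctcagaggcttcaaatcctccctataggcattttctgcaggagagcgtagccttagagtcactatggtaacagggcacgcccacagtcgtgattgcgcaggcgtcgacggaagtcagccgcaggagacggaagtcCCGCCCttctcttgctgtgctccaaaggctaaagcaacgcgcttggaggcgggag

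These windows are of the CpG-rich kind. Hnrnpul2 has 32 CpG pairs in its window, Hnrnpm 29, Hnrnpr 24, Hnrnph2 19 and Snrpd2 18, where the median was 24 over the 43 windows of members, 11 over 21851 windows of protein-coding genes and 7 over all 33469. The Hnrnpr window holds 3 CCAAT boxes, the Hnrnph2 window 2 CCAAT boxes and 2 E-boxes, and the Hnrnpm window 1 of each and a TATA box that begins at position -231 from the start. A GC box was present in 62.8% of the windows of members, against 41.8% of those of protein-coding genes and 33.1% of all. The ETS core was present in 30.2%, against 10.7% and 8.75%, the CCAAT box in 51.2%, against 38% and 37.5%, and the E-box in 9.3%, against 7.02% and 6.42%. TATA boxes were present in 9.3%, against 13% and 14.2%, and the cAMP response element in 2.33%, against 2.1% and 1.83%. The shares and CpG medians count windows, not genes, and include windows that lie far inside a gene, such as that of Celf1. Hnrnpf has 3 windows, and each holds the ETS core. Letters in a window are a description and not a site of binding.

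By day 28 most members had a higher signal than on day 0, in both treatments, and only a few passed the test. In MIA rats 33 of 49 members were above their level of day 0, with a median change of 0.27, and in naive rats 36 of 49, with a median of 0.28. Over all probe sets the medians were -0.02 in MIA rats and -0.01 in naive rats, but over the probe sets above the median signal they were 0.14 in MIA rats and 0.09 in naive rats, where 63.6% and 60.3% of those were above 0, against 46.5% and 48.6% of all. Of the 49 members, 32 were higher in both treatments, 12 were lower in both and 5 went opposite ways. The same counts were not made over all probe sets, so this agreement has no background beside it. When the quantiles of the 49 arrays were normalized again, the median was 0.11 in MIA rats and 0.17 in naive rats.

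The median change over the members of each rat shows how far this held from animal to animal. It was above 0 at day 28 in 4 of 6 MIA rats, with a mean of 0.21 ± 0.22 (SD, n = 6), and in 4 of 4 naive rats, with a mean of 0.28 ± 0.16 (SD, n = 4). At day 2 the means were -0.05 ± 0.10 in MIA rats and -0.02 ± 0.12 in naive rats. At day 14 they were 0.05 ± 0.17 and 0.13 ± 0.12, and at day 21 they were 0.05 ± 0.24 in 5 MIA rats and 0.17 ± 0.31 in naive rats. The spread between rats was thus as large as the shift in most groups, and MIA and naive rats overlapped on every day.

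**Figure D1:**
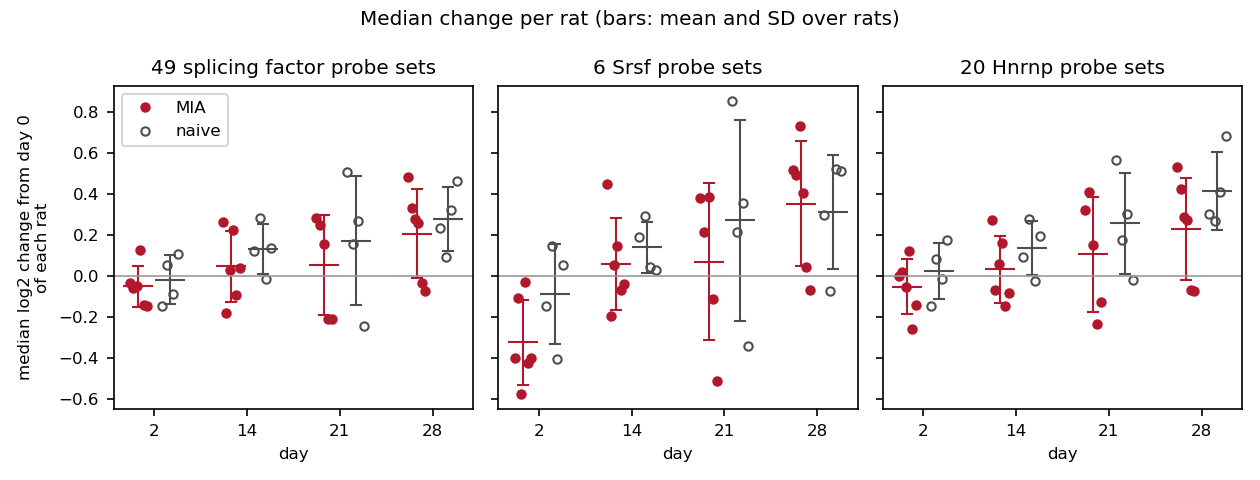
Median log2 change from day 0 in each rat (y axis) by day (x axis) over the 49 members, the 6 Srsf probe sets and the 20 Hnrnp probe sets; filled points are MIA rats, open points naive rats, and bars the mean and SD over rats. At day 28 the median over the members was above 0 in 4 of 6 MIA rats and in 4 of 4 naive rats, and at day 2 the Srsf median was below 0 in 6 of 6 MIA rats.

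At MIA day 28, 3 members passed the test against MIA day 0, with Hnrnpm higher and Celf1 and Hnrnpl-ps2 lower. That is 2.04% of the members higher and 4.08% lower, where 2.39% of all probe sets were called higher and 1.87% lower. Of the probe sets above the median signal, 4.67% were called higher and 2.78% lower. At an unadjusted p under 0.05, 16 members were higher and 5 lower. That is 32.7% and 10.2%, where all probe sets had 11.7% and 9.77%, and those above the median signal 21.8% and 9.13%. At naive day 28, 4 members passed, with Hnrnph2, Hnrnpr and Hnrnpul2 higher and Snrpd2 lower, which is 6.12% higher and 2.04% lower where 1.16% of all probe sets were called higher and 0.886% lower. Of the probe sets above the median signal, 2.28% were called higher and 1.58% lower in naive rats. At an unadjusted p under 0.05, 18 members were higher and 2 lower there, or 36.7% and 4.08%, where all probe sets had 8.09% and 6.66%, and those above the median signal 14.7% and 7.58%. No member passed in both treatments in this fit, which does not take account of the 5 samples of each rat. With the rat as a fixed term, 8 members passed in MIA rats and 9 in naive rats, and Celf2, Sf3a2 and Snrpd2 passed in both. With the rat as a random block, 8 passed in MIA rats and 5 in naive rats, and Snrpd2 passed in both. Between the days, the values of 1 member higher and 2 lower did not overlap in MIA rats, where 2.07% and 1.4% of all probe sets did not, and those of 8 higher and 1 lower did not overlap in naive rats, where 4.64% and 3.62% did not.

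**Figure D2:**
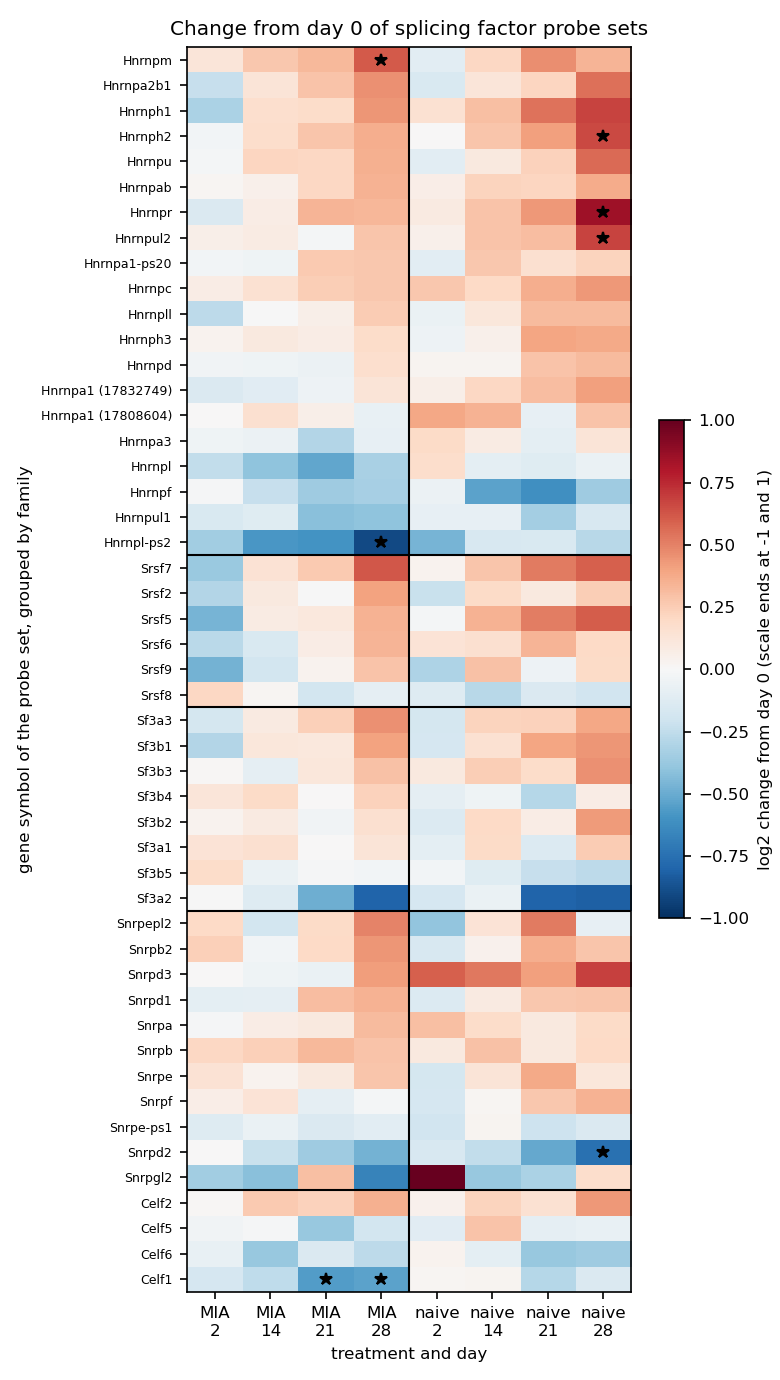
Log2 change from day 0 (colour, red higher and blue lower) of the 49 members (rows, by family and then by change at MIA day 28) on each day in MIA and naive rats (columns); stars mark the 8 changes called by limma. The change of Snrpgl2 at naive day 2, 1.28, lies beyond the end of the colour scale.

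Among the hnRNPs, Hnrnpm rose in MIA rats. It encodes hnRNP M, a nuclear protein that binds GU-rich RNA and takes part in the choice of exons. Its log2 signal at MIA day 28 had a lowest value of 6.93, a median of 7.07 and a highest of 7.46, against 6.18, 6.35 and 7.05 at MIA day 0. All 6 rats were higher at day 28, but the groups overlapped, because replicate 6 already had 7.05 at day 0. The change was 0.61 ± 0.15 (SE), with an adjusted p of 0.0183 in limma. In naive rats the values were 6.91, 6.70, 6.53 and 7.83 at day 28 and 6.67, 6.43, 6.58 and 6.93 at day 0. Replicate 4 stood high at day 28 there, and the change of 0.34 ± 0.19 did not pass (adjusted p = 0.419). The MIA call was lost without MIA replicate 1, 2, 3 or 4, with adjusted p up to 0.158, and also after a renewed quantile normalization (adjusted p = 0.0524).

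Hnrnph2, Hnrnpr and Hnrnpul2 rose in naive rats. Hnrnph2, which encodes an hnRNP that binds runs of G, had 6.07, 5.91, 6.03 and 6.42 at naive day 28, against 5.38, 5.41, 5.57 and 5.42 at naive day 0. The groups did not overlap, and the change was 0.66 ± 0.15 (adjusted p = 0.0122 in limma). In MIA rats its lowest, median and highest values were 5.43, 5.98 and 6.15 at day 28 and 5.16, 5.60 and 5.83 at day 0, and the change of 0.36 ± 0.12 did not pass (adjusted p = 0.0771).

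Hnrnpr, a factor of mRNA processing and transport, had 5.04, 4.88, 5.90 and 5.63 at naive day 28, against 4.47, 4.51, 4.49 and 4.59 at naive day 0. Replicates 3 and 4 stood well above the other two at day 28, and the change was 0.84 ± 0.22 (adjusted p = 0.0287). At MIA day 28 the values were close together, with a lowest of 4.82, a median of 4.99 and a highest of 5.06, against 4.34, 4.47 and 5.11 at MIA day 0, a change of 0.33 ± 0.18 (adjusted p = 0.273). Hnrnpul2, an hnRNP U-like protein with a role in the repair of DNA ends, had 6.39, 6.32, 6.67 and 7.07 at naive day 28, against 5.86, 5.93, 6.00 and 5.95 at naive day 0. Its change was 0.68 ± 0.17 (adjusted p = 0.0271), without overlap, and in MIA rats it was 0.28 ± 0.14 (adjusted p = 0.248). All 3 of these naive calls were lost without naive replicate 3 or 4, and those of Hnrnph2 and Hnrnpul2 also without replicate 1, with adjusted p up to 0.272 for Hnrnpr.

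Of the remaining hnRNPs only the pseudogene probe set Hnrnpl-ps2, described further on, passed in the main fit, and most of the well known ones lay above day 0 at day 28. Hnrnpu, which encodes a nuclear scaffold protein, had a change of 0.35 ± 0.14 in MIA rats (adjusted p = 0.123) and of 0.56 ± 0.17 in naive rats (0.0628) at day 28. In naive rats it passed in limma with the rat as a fixed term (0.0284) and without dim probe sets (0.0387). It passed there also after the shift to the same median (0.0378) and after renewed quantile normalization (0.037). In MIA rats it passed after the shift (0.0488). Hnrnpc, a protein of the particle that packs nascent transcripts, had a change of 0.27 ± 0.11 in MIA rats (0.138) and 0.43 ± 0.13 in naive rats (0.0733), where the days did not overlap. The naive change passed in limma with the rat as a fixed term (0.0464), without dim probe sets (0.0468) and after the shift (0.0474). Hnrnpa2b1, which also carries RNA in the cytoplasm, had a change of 0.46 ± 0.20 in MIA rats (0.174) and 0.55 ± 0.25 in naive rats (0.282). Hnrnpab, an A/B type hnRNP, was higher in 6 of 6 MIA rats by 0.35 ± 0.11, which missed the threshold (0.0571), and in 4 of 4 naive rats by 0.37 ± 0.14 (0.154). Of the probe sets of Hnrnpa1, the founding hnRNP that acts against exons, 17832749 had a change of 0.13 in MIA rats and 0.41 in naive rats and 17808604 one of -0.07 in MIA rats and 0.28 in naive rats, and none of these passed. Hnrnpll, the regulator of CD45 exons, had a change of 0.26 in MIA rats and 0.32 in naive rats, with adjusted p of 0.368 and 0.494.

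A minority of hnRNPs lay on the other side. Hnrnpl, which like hnRNP LL binds CA-rich RNA, had a change of -0.32 ± 0.17 at MIA day 28, lower in 6 of 6 rats (adjusted p = 0.250), and one of -0.06 in naive rats. After the quantiles were normalized again, its change at MIA day 28 was -0.50 and passed in limma (adjusted p = 0.0415). Hnrnpul1, a second U-like protein, had a change of -0.40 ± 0.13 at MIA day 28, also lower in 6 of 6 rats (0.0615). The pseudogene probe set Hnrnpl-ps2 fell by 0.90 ± 0.24 at MIA day 28 (0.0224). Its lowest, median and highest values were 0.98, 1.53 and 1.63 at MIA day 28, against 1.82, 2.30 and 2.82 at MIA day 0, so the groups did not overlap. Its signal lay below the median of all probe sets, and the call was lost without MIA replicate 1, 2 or 3 (adjusted p up to 0.101). In naive rats it had a change of -0.28 (0.734).

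**Figure D3:**
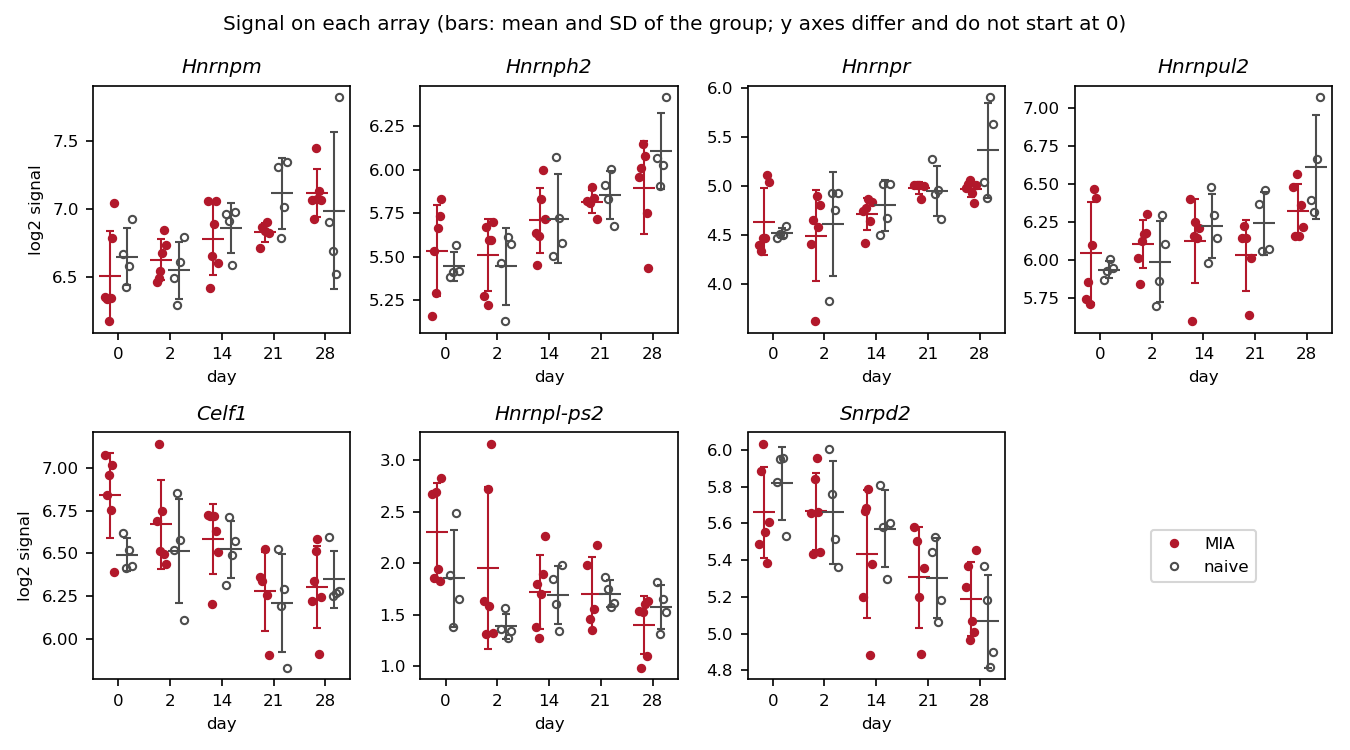
Log2 signal on each array (y axes, which differ and do not start at 0) by day (x axes) of the 7 members called at day 21 or 28; filled points are MIA rats, open points naive rats, and bars the mean and SD of the group. Hnrnpm at MIA day 28 lies between 6.93 and 7.46, and the 4 naive values of Hnrnpr at day 28 lie between 4.88 and 5.90, above all 4 of day 0.

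Celf1 was the only member called on more than 1 day, and it fell in MIA rats. It encodes a CUG-binding protein that controls exons and hastens the decay of GU-rich mRNAs. Its values at MIA day 21 were 6.36, 6.34, 6.53, 6.26 and 5.91, and at MIA day 28 the lowest, median and highest were 5.91, 6.29 and 6.58, against 6.39, 6.90 and 7.08 at MIA day 0. No rat was higher on either day than on day 0, while the groups overlapped through replicate 6, which had 6.39 at day 0. The change was -0.56 ± 0.14 at day 21 (adjusted p = 0.0452 in limma), 1 of 49 members or 2.04%, where 0.537% of all probe sets were called lower and 0.128% higher. Of the probe sets above the median signal, 0.987% were called lower and 0.213% higher. At day 28 the change of Celf1 was -0.54 ± 0.14 (adjusted p = 0.0184 in limma). At day 21 the call was lost when any MIA rat, or naive replicate 2 or 3, was left out (adjusted p up to 0.164), and after the arrays were shifted to the same median (0.0862). At day 28 it was lost without MIA replicate 1, 3 or 5 (up to 0.120). In naive rats Celf1 had 6.60, 6.25, 6.27 and 6.28 at day 28, against 6.62, 6.41, 6.52 and 6.42 at day 0, a change of -0.14 ± 0.17 (0.764). The MIA rats had started higher, by 0.35 on day 0, and the interval of that difference ran from 0.04 to 0.65.

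The other CELF genes lay on different sides of day 0. Celf2, a paralog that controls exons during T cell activation, had a lowest, median and highest value of 7.41, 7.59 and 7.76 at MIA day 28, against 7.05, 7.26 and 7.35 at MIA day 0. The groups did not overlap, and 6 of 6 rats were higher. The change of 0.35 ± 0.11 missed the threshold (adjusted p = 0.0523) and passed with the rat as a random block (0.0417) or a fixed term (0.0209), without dim probe sets (0.0350) and after the arrays were shifted to the same median (0.0183). In naive rats it was 0.44 ± 0.13 (0.0712, and 0.0252 with the rat as a fixed term). Celf5 and Celf6, whose proteins are best known from brain, did not pass. At day 28 the change of Celf5 was -0.18 in MIA rats and -0.07 in naive rats, and that of Celf6 -0.26 in MIA rats and -0.35 in naive rats.

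The SR proteins lay below their level of day 0 at MIA day 2 and above it at MIA day 28, and none passed. The median over the 6 Srsf probe sets was -0.33 at MIA day 2, with 1 of 6 above 0, and 0.35 at MIA day 28, with 5 of 6 above 0. In naive rats it was -0.07 at day 2 and 0.22 at day 28. Per rat, the median at day 2 was -0.32 ± 0.21 in MIA rats (SD, n = 6; 0 of 6 above 0) and -0.09 ± 0.24 in naive rats (SD, n = 4; 2 of 4 above 0). At day 28 it was 0.35 ± 0.30 in MIA rats (5 of 6 above 0) and 0.31 ± 0.28 in naive rats (3 of 4 above 0).

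No member was called at MIA day 2 by limma, nor was any of all 36685 probe sets. At an unadjusted p under 0.05 there were 0 members higher and 2 lower, both SR proteins, where 2.99% of all probe sets were higher and 2.66% lower. Srsf9 had a lowest, median and highest value of 3.21, 3.94 and 4.06 at MIA day 2, against 3.89, 4.27 and 4.53 at MIA day 0. Srsf5 had 5.82, 6.41 and 6.61 at MIA day 2, against 6.50, 6.67 and 7.06 at MIA day 0. Both were lower in 6 of 6 rats, with overlap between the days. The changes were -0.47 ± 0.21 for Srsf9 (adjusted p = 0.843) and -0.46 ± 0.21 for Srsf5 (0.857). Sf3b1, at -0.30 ± 0.16 (0.895), had the next smallest p and was also lower in 6 of 6 rats. Lower in every rat were 3 members, or 6.12%, where 1.76% of all probe sets were.

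By day 28 the same SR genes were above day 0. Srsf5 had 6.91, 7.04 and 7.36 at MIA day 28 (lowest, median and highest), a change of 0.35 (adjusted p = 0.339), and 6.45, 6.31, 7.89 and 7.72 at naive day 28, a change of 0.61 ± 0.26 (0.237). Replicates 3 and 4 stood apart in naive rats, since their values on day 0 were 6.78 and 6.70, while replicates 1 and 2 had 6.11 and 6.35 on day 0. Srsf7 had the highest change of the family at MIA day 28, 0.62 ± 0.23 (0.101), and 0.60 ± 0.28 in naive rats (0.300). Srsf2, an exon binding factor often mutated in human myeloid disease, had a change of 0.40 ± 0.19 in MIA rats (0.221) and 0.25 in naive rats (0.696). Srsf8 had the lowest, -0.09 in MIA rats and -0.19 in naive rats.

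Neutrophil markers also lay below day 0 at MIA day 2. Over 20 probe sets of neutrophil genes the median change was -0.35 in MIA rats, with 3 of 20 above 0 and 0 called, and -0.02 in naive rats, with 8 of 20 above 0. The summed log2 signal of these markers ranged from 90.6 to 104 at MIA day 2, against 96.7 to 111 at MIA day 0, and from 93.2 to 107 at naive day 2, against 93.2 to 110 at naive day 0. At MIA day 2 the mean over rats of the median change was -0.29 over neutrophil, -0.10 over monocyte and -0.01 over erythroid markers. It was 0.16 over T cell, 0.08 over B cell, 0.05 over natural killer and cytotoxic and 0.05 over platelet markers. Over immediate early genes it was -0.11. The T cell median was above 0 in 6 of 6 MIA rats, and the neutrophil median in 1 of 6. The part of these lists in the values of the SR genes was not tested.

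In the SF3 complexes no member passed on any day. Sf3b1, the SF3B subunit that clamps the branch point, had 7.32, 7.47 and 7.65 at MIA day 28 (lowest, median and highest), against 6.84, 7.07 and 7.36 at MIA day 0, a change of 0.40 ± 0.16 (adjusted p = 0.130). In naive rats it had a change of 0.45 ± 0.20 (0.266). Sf3a3 had the highest change of the family at MIA day 28, 0.46 ± 0.16 (0.0893), and 0.39 ± 0.20 in naive rats (0.354).

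Sf3a2 lay far from the rest of its complex. It had 5.78, 6.30 and 6.56 at MIA day 28, against 6.57, 6.97 and 7.55 at MIA day 0, and so was lower in 6 of 6 rats without overlap. The change was -0.80 ± 0.25 in MIA rats (adjusted p = 0.0566) and -0.82 ± 0.31 in naive rats (0.170), where 4 of 4 were lower. With the rat as a block, random or fixed, it was among 8 members called at MIA day 28, and with the rat as a fixed term it was called at naive days 21 and 28 as well. On day 0 the rats differed widely in it, from 6.57 to 7.55 in MIA rats and from 6.66 to 7.86 in naive rats.

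Among the Sm and snRNP proteins, Snrpd2 fell in naive rats. It encodes SmD2, a member of the ring that binds the small nuclear RNAs. Its values at naive day 28 were 5.37, 5.18, 4.82 and 4.90, against 5.83, 5.95, 5.96 and 5.53 at naive day 0. The groups did not overlap. The change was -0.75 ± 0.18 (adjusted p = 0.0162 in limma), and it was lost without naive replicate 2, 3 or 4 (up to 0.189). In MIA rats Snrpd2 was lower in 6 of 6 rats, with 4.96, 5.16 and 5.45 at day 28 against 5.39, 5.58 and 6.03 at day 0. That change, -0.47 ± 0.15, missed the threshold (0.0516) and passed with the rat as a random or fixed block.

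Snrpd3, which encodes SmD3 of the same ring, lay on the other side of day 0. It had 5.49, 5.24, 5.49 and 5.89 at naive day 28, against 4.86, 4.51, 5.15 and 4.85 at naive day 0, without overlap, and the change of 0.69 ± 0.20 missed the threshold (adjusted p = 0.0540). At naive day 2 it had 5.28, 5.48, 5.42 and 5.58, a difference of 0.60 ± 0.20 from day 0 (0.751), also without overlap. In MIA rats the median was 5.31 at day 2 and 5.76 at day 28, against 5.30 at day 0, with changes of 0.00 and 0.42 ± 0.16 (0.120 at day 28). Snrpd1 had a change of 0.35 in MIA rats and 0.28 in naive rats and Snrpb, which encodes SmB, one of 0.29 in MIA rats and 0.20 in naive rats at day 28, and neither passed. The extremes of the family at MIA day 28 were the copies Snrpepl2, at 0.50, and Snrpgl2, at -0.67, which at naive day 2 had one of 1.28 with a standard error of 0.66.

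The question of the design is whether the change in MIA rats differs from that in naive rats, and no member passed that test on any day. By limma 0 of 49 members and 0 of all probe sets were called in each of the 4 differences. At an unadjusted p under 0.05 the members had 0 higher and 1 lower on days 2 and 14 each, and 0 and 0 on days 21 and 28 each. On these days all probe sets had, in turn, 2.82% and 2.77%, 2.22% and 2%, 2.31% and 1.29%, and 1.95% and 2.1%. Over the members, the median difference on days 2, 14, 21 and 28 was -0.03, -0.11, -0.10 and -0.08 in that order. At day 14 only 11 of 49 members were above 0, or 22.4%, where 48.3% of all probe sets and 37.2% of those above the median signal were. That median difference was -0.0072 when the quantiles were normalized again. These 4 differences share the day 0 arrays.

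The intervals leave room for differences of moderate size. At day 28 Hnrnpm differed by 0.28, and the interval of 95% ran from -0.22 to 0.77. Celf1 differed by -0.39 (-0.83 to 0.04), Hnrnpr by -0.51 (-1.08 to 0.05), Hnrnpul2 by -0.40 (-0.85 to 0.05), Hnrnph2 by -0.30 (-0.69 to 0.09) and Hnrnpl-ps2 by -0.63 (-1.38 to 0.12). So the calls made in a single treatment were not shown to differ between treatments. At day 2 the smallest p was that of Snrpd3, with a difference of -0.59 and an interval of -1.11 to -0.08 (adjusted p = 0.825), followed by Snrpgl2 at -1.63 and Snrpepl2 at 0.60. At day 14 it was again Snrpd3, at -0.57 (-1.08 to -0.05), followed by Srsf9 at -0.47 and Srsf8 at 0.30, and at day 21 Snrpd3 at -0.48 (-1.01 to 0.04), followed by Hnrnpd at -0.35 and Hnrnph3 at -0.32. These differences of Snrpd3 all subtract the same day 0 arrays, so they are not independent of each other. On day 0 Snrpd3 was higher in MIA rats than in naive rats by 0.46.

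**Figure D4:**
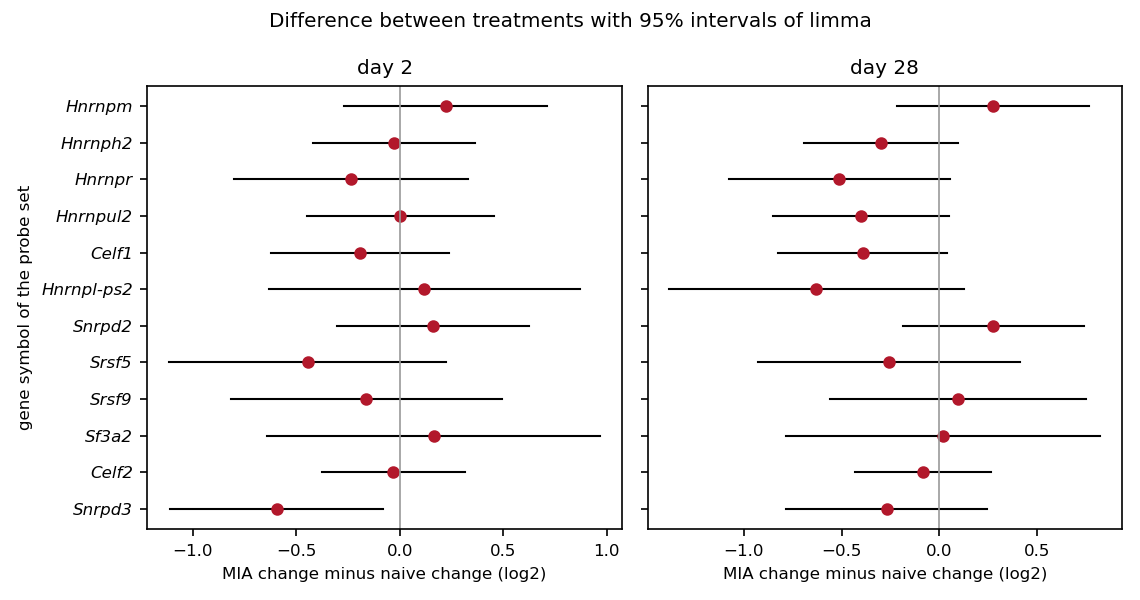
Difference between the MIA change and the naive change (x axis, log2) at days 2 and 28 for 12 members (rows), with points for the estimate and lines for the 95% interval in limma. The rows are the members called in any comparison and the member with the smallest p where none was called. Celf2, Sf3a2 and Srsf5 were added after their values were seen. At day 28 each of the 12 intervals includes 0, and at day 2 that of Snrpd3 alone does not, from -1.11 to -0.08. Snrpd3 was chosen for its small p, at day 2 among others, so its interval is no separate support.

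On day 0 the smallest p between MIA and naive rats was that of Snrpd3. Its values in MIA rats were 4.84, 5.30 and 5.70 (lowest, median and highest), against 4.86, 4.51, 5.15 and 4.85 in naive rats. The difference was 0.46 ± 0.18, with an unadjusted p of 0.0136 and an adjusted p of 1 in limma. Celf1, at 0.35, and Sf3b3, at 0.31, followed. No member was called on day 0, and 2 were higher and 0 lower at an unadjusted p under 0.05, where 1.83% and 2.4% of all probe sets were.

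On the remaining days Celf1 alone passed. At MIA day 14 limma called 0 members and 0 of all probe sets. At an unadjusted p under 0.05, 1 member was higher and 3 lower, where 2.04% and 4.6% of all probe sets were. The smallest p belonged to Hnrnpl-ps2 at -0.58, Hnrnpl at -0.40 and Celf2 at 0.26, which was higher in 6 of 6 rats. At naive day 2 limma called 0 members and 0 probe sets, with 1 member higher and 0 lower at an unadjusted p under 0.05 (2.67% and 2.4% of all). The smallest p was that of Snrpd3, followed by those of Hnrnpc at 0.27 and Snrpgl2 at 1.28.

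At naive day 14 limma called 0 members, and 0.00273% of all probe sets higher and 0% lower, with 1 member higher and 1 lower at an unadjusted p under 0.05 (3% and 3.9% of all). The smallest p belonged to Snrpd3 at 0.53, Hnrnpf at -0.53 and Hnrnph2 at 0.28. At naive day 21 it called 0 members, and 0.0382% of all probe sets higher and 0.294% lower, with 7 members higher and 4 lower at an unadjusted p under 0.05 (3.9% and 8.79% of all). The smallest p there belonged to Snrpd2, with a change of -0.51, Hnrnpf, with -0.61, and Hnrnph3, with 0.40. Hnrnpf had a mean signal below the median of all probe sets and no gene identifier beside its symbol. At MIA day 21, 4 members were higher and 5 lower at an unadjusted p under 0.05, where 5.82% and 7.76% of all probe sets were.

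Genes of other parts of the spliceosome were also mostly above their level of day 0 at day 28. In 8 lists with 112 probe sets of other spliceosome genes, 11 were called higher and 2 lower at MIA day 28, and 3 higher and 2 lower at naive day 28. In MIA rats that is 9.82% higher and 1.79% lower, where 2.39% and 1.87% of all probe sets were called, and in naive rats it is 2.68% higher and 1.79% lower, where 1.16% and 0.886% were. The median changes were 0.26 in MIA rats, with 88 of 112 above 0, and 0.27 in naive rats, with 87 of 112. Those are 78.6% and 77.7%, where 63.6% and 60.3% of the probe sets above the median signal were above 0. At MIA day 21, 0 were called higher and 3, or 2.68%, lower, where 0.128% of all probe sets were called higher and 0.537% lower. Of the probe sets above the median signal, 0.213% were called higher and 0.987% lower on that day. No probe set of the 8 lists was called at days 2 and 14, at naive day 21, in the differences between treatments or on day 0.

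The values in the following are log2 changes at day 28. Among the kinases and import factors of SR proteins the calls in MIA rats were Srpk1, a kinase that readies SR proteins for import, at 0.50 ± 0.13 (adjusted p = 0.0180 in limma), and Tnpo3, which carries SR proteins into the nucleus, at 0.47 ± 0.13 (0.0351). Each was higher in 6 of 6 rats. Around the branch point and in the A complex, Rbm39, at 0.43 ± 0.12 (0.0325), and Rbm5, at 0.42 ± 0.12 (0.0432), were called, both RNA-binding regulators of splicing. The exon junction complex had its core proteins Magoh, at 0.86 ± 0.23 (0.0292), and Magohb, at 0.68 ± 0.21 (0.0464). Tra2a, an SR-like protein, had a change of 0.60 ± 0.18 (0.0428), and Ptbp3, a pyrimidine tract binder of blood cells, one of 0.31 ± 0.08 (0.0307) in MIA rats and 0.48 ± 0.10 (0.00872) in naive rats.

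Among other snRNP proteins, Prpf38a had a change of 0.61 ± 0.17 (adjusted p = 0.0287 in limma) and Snrnp48, of the minor spliceosome, one of 0.48 ± 0.14 (0.0435) at MIA day 28. In the PRP19 complex and the proteins of the catalytic step the calls were mixed. Prpf19, a ubiquitin ligase, had a change of 0.50 ± 0.14 (0.0368), while its partner Bcas2 fell by 0.33 ± 0.09 (0.0272) and Bud31 by 0.68 ± 0.18 (0.0230) in MIA rats. Bud31 fell by 0.80 ± 0.22 (0.0399) in naive rats too, where Cwc27 had a change of 0.63 ± 0.17 (0.0394). The LSm ring, which binds U6 RNA, had Lsm7 lower by 0.86 ± 0.19 (0.00994) and Lsm8 higher by 0.79 ± 0.21 (0.0320) in naive rats. At MIA day 21, Zmat2 fell by 0.67 ± 0.16 (0.0354), Bcas2 by 0.40 ± 0.09 (0.0302) and Elavl1, which steadies AU-rich mRNAs, by 0.53 ± 0.11 (0.0117). Among the RNA-binding proteins related to hnRNPs 0 of 12 were called in either treatment at day 28. All 13 calls in MIA rats at day 28 were lost without MIA replicate 1 or 3, all 5 in naive rats were lost without naive replicate 3 or 4, and 7 of the 13 calls in MIA rats were lost when the quantiles were normalized again.

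Several lists of blood cell markers also lay away from day 0 at day 28, some of them already at day 21. At MIA day 21 the mean over rats of the median change was -0.36 over erythroid and 0.50 over natural killer and cytotoxic markers. It was 0.27 over neutrophil markers, 0.06 over B cell markers and 0.05 over the members. At naive day 21 these means were, in the same order, -0.45, 0.54, 0.19, -0.05 and 0.17. At day 28 the median over 24 probe sets of erythroid genes was -0.51 in MIA rats and -0.56 in naive rats, with 0 of 24 above 0 in either, and 7 were called lower in MIA rats and 3 in naive rats. The summed log2 signal of these markers ranged from 190 to 209 at MIA day 28, against 205 to 222 at MIA day 0, and from 192 to 210 at naive day 28, against 205 to 219 at naive day 0. As a background, 2.39% of all probe sets were called higher and 1.87% lower at MIA day 28. The shares at naive day 28 were 1.16% higher and 0.886% lower. Above the median signal, 4.67% were called higher and 2.78% lower at MIA day 28. There the naive shares were 2.28% higher and 1.58% lower. Markers of leukocytes were higher. The medians were 0.56 in MIA rats and 0.53 in naive rats over 20 neutrophil probe sets, with 7 and 4 called higher, and 0.56 and 0.77 over 17 of natural killer and cytotoxic cells, with 8 and 7 called higher. They were 0.43 and 0.37 over 18 of T cells, 0.42 and 0.35 over 13 of monocytes and 0.29 and 0.11 over 12 of B cells, and over 11 platelet probe sets -0.01 and -0.04. Counts of calls are not given here for the T cell, monocyte, B cell and platelet lists. Of 15 probe sets of immediate early genes, which also respond to the handling of blood, 4 were called higher in MIA rats and 2 in naive rats, with medians of 0.05 and 0.21. Taken per rat, their median change had a mean of 0.22 in MIA rats, above 0 in 6 of 6. In naive rats that mean was 0.23, above 0 in 4 of 4. The summed signal of the natural killer and cytotoxic markers ranged from 84.8 to 90.4 at MIA day 28, against 73.0 to 79.3 at MIA day 0, and from 83.3 to 94.7 at naive day 28, against 75.9 to 81.2 at naive day 0. The part of these shifts in the values of the splicing factors was not tested.

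**Figure D5:**
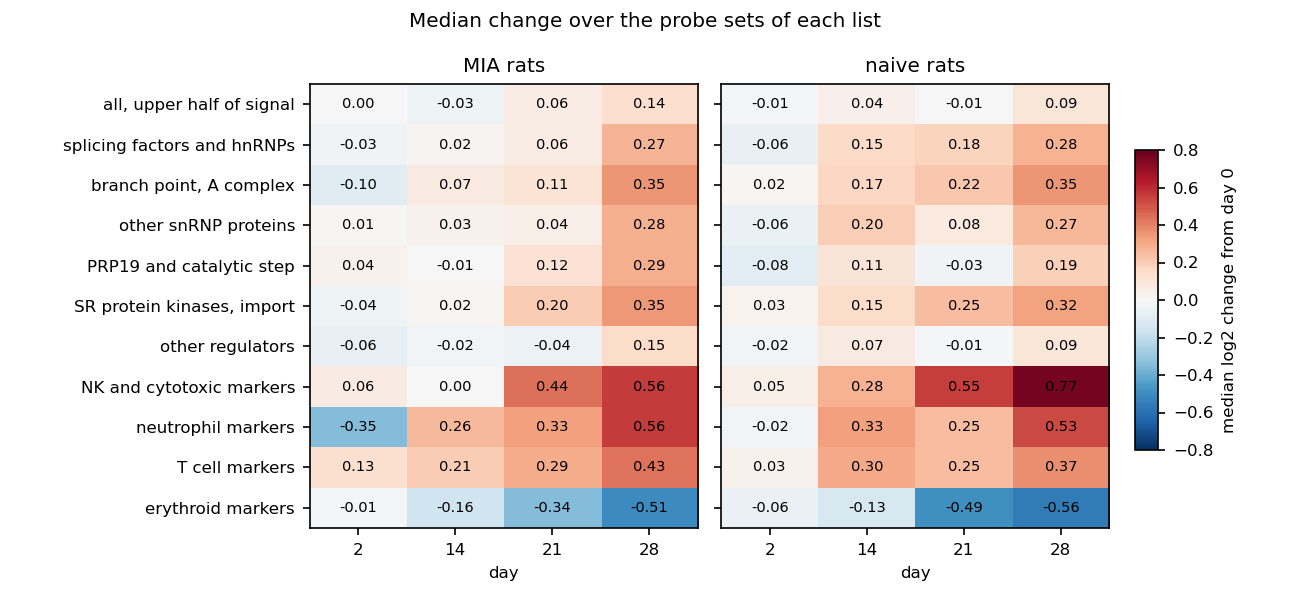
Median log2 change from day 0 (colour and printed value) by day (columns) in MIA rats and in naive rats over the probe sets of each list (rows): all probe sets above the median signal, the 49 members, and some of the lists of other spliceosome genes and blood cell markers. Not drawn are the LSm, exon junction complex and hnRNP-related lists and the monocyte, B cell, platelet and immediate early lists. At day 28 the members were at 0.27 in MIA rats and 0.28 in naive rats, between the erythroid markers, at -0.51 and -0.56, and the natural killer and cytotoxic markers, at 0.56 and 0.77.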

How the data were processed

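RNA of rat whole blood was measured on Affymetrix Rat Gene 2.0 ST arrays. Before they were deposited, the log2 signals had been corrected for background and quantile normalized by the authors; the submitters' processing notes name oligo 1.36.1, and how probes were summarized is not given in the sources used here. These values were used as deposited, and 0 columns belonged to samples outside the series. The deposited arrays did not share 1 distribution, with medians from 2.12 to 2.38 on 49 arrays and 2.76 on MIA day 21 replicate 4, so normalizing the quantiles again was an alternative. The labels give 6 MIA and 4 naive rats, whereas the methods state 6 per group; the text follows the labels, and the animals are separate. Gene symbols came from the annotation of the platform; of the 48 genes, 46 were found by identifier in RefSeq GRCr8, which changed 0 symbols.

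Linear models were fitted with limma 3.58.1 (R 4.3.3) to 49 arrays, with 1 mean for each of 10 groups of treatment and day, following the factors time and treatment of the methods. Moderated tests were two-sided, with Benjamini-Hochberg adjustment over 36685 probe sets within each of 13 comparisons: each day against day 0 within a treatment, the difference between the changes of MIA and naive rats, and MIA against naive rats on day 0. Intervals are 95% intervals of limma. Since each rat was bled 5 times, fits with the rat as a block were alternatives, the fixed term being added after seeing the data. The replicate numbers of the labels name animals within a treatment, and the deviations of arrays from their group means correlated by 0.0821 on average within a rat (0.0473 to 0.134 per rat) and by -0.0294 between rats. No pair of arrays held equal values. Other alternatives were all 50 arrays, a filter on dim probe sets, a shift of every array to 1 common median, limma's trended and robust prior, and the omission of each rat in turn. The fit was run on simulated data with independent noise, no rat effect and known changes larger than those of the called members. That run does not show how well changes of the size seen here are found.

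The members and the lists of spliceosome and marker genes were chosen with earlier results of these data known. By rule, the text names each member called in a comparison, or the 3 with the smallest p where none was; the extremes of each family at MIA day 28; a set of well known members; and up to 3 genes per list at day 28. Celf5, Celf6, Hnrnpab, Hnrnpul1 and Zmat2 were named, and Srsf5, Sf3a2, Sf3b1 and Celf2 given by sample, after their values were seen. Signals of different probe sets were not compared. Arrays have no sequencing depth, and precision is limited by how many there are. Python 3.11.15 with matplotlib 3.10.9 drew the figures.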

Additional observations from a re-analysis of the deposited data

Results flagged for a closer look

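Samples that stood apart from the rest of their group were looked for in 128 groups of 4 to 6 values, from the signals of 12 members and the medians per rat, and 6 groups held one, where chance alone gives about 1 in 20. Replicate 2 of MIA day 14 was low for Hnrnpul2, at 5.5929 where the nearest of the others had 6.1412, and for Srsf9, at 3.089 where the nearest had 3.9996. Hnrnpr was low in MIA day 21 replicate 5, at 4.8675 where the nearest had 4.996, in a group of little spread, and in naive day 2 replicate 1, at 3.8274 where the nearest had 4.7507. Hnrnpm was low in naive day 14 replicate 3, at 6.5897 where the nearest had 6.9155. Celf1 was high in naive day 28 replicate 1, at 6.5963 where the nearest had 6.2775. Over all log2 signals, the SD was 1.80 on MIA day 14 replicate 2, the low end of the 49 arrays (1.80 to 1.99). It was 1.84 on MIA day 21 replicate 5 and 1.84 on naive day 2 replicate 1. On naive day 14 replicate 3 it was 1.93, and on naive day 28 replicate 1 it was 1.94. Whether the low values belong to the gene or to the whole array was not tested. The arrays of days 2 and 14 enter the called changes only through the variance that all groups share. In 196 pairs of a member and a day, none had all MIA rats on one side of 0 and all naive rats on the other.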

How the results depend on the processing

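The number of members called depended on the processing at days 21 and 28, and no called change turned its direction under any alternative. Against 3 at MIA day 28, 8 members were called with the rat as a random block (replicate block), 8 with the rat as a fixed term, 7 without dim probe sets, 8 after the arrays were shifted to the same median, 6 after the quantiles were normalized again, all 6 of them lower, and 0 on all 50 arrays. Against 4 at naive day 28, 9 were called with the rat as a fixed term, 8 without dim probe sets, 7 after the shift to the same median and 0 on all 50 arrays. Against 1 at MIA day 21, 2 were called with the rat as a fixed term, 2 after the renewed normalization and 0 after the shift to the same median, and against 0 at naive day 21, 1 was called with the rat as a fixed term. Leaving out each rat gave 0 to 7 members at MIA day 28, with 0 without MIA replicate 1 or 3 and 7 without naive replicate 4, 0 to 5 at naive day 28, with 0 without naive replicate 3 or 4, and 0 to 1 at MIA day 21. The block changed no other count by more than 1.5 times. With all 50 arrays, the median change over the members moved to -0.29 at MIA day 21 and to -0.44 for the difference between treatments at day 21, because the array of MIA day 21 replicate 4 entered. After the quantiles were normalized again, the median at MIA day 21 was -0.0049 where it had been 0.06, and that of the difference at day 14 was -0.0072 where it had been -0.11. The median at MIA day 14, 0.02, was 0.07 after the shift to the same median and was below 0 without MIA replicate 1 or 6, and that of the difference at day 2, -0.03, was above 0 without naive replicate 2 or 4. At day 28, renewed normalization gave medians of 0.11 in MIA rats and 0.17 in naive rats. Other than on all 50 arrays, every median stayed within the SD between rats of its main value, though several moved by more than 1.5 times.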

Other observations

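The rule left out 5 probe sets that carry a symbol of these families together with another symbol. The probe set of Srsf3 and LOC100910660 had a change of 0.73 ± 0.25 (SE) at MIA day 28 (adjusted p = 0.0737 in limma; higher in 5 of 6 rats) and of 0.41 ± 0.30 at naive day 28 (0.582). Srsf3 encodes a small SR protein that also aids mRNA export. The probe set of Snrpd2 and Snrpd2l fell by 0.99 ± 0.25 at naive day 28 (0.0271; lower in 4 of 4 rats) and had a change of -0.48 ± 0.21 at MIA day 28 (0.158), the same directions as the probe set of Snrpd2 alone, with which it may share sequence. The probe set of Hnrnpa1-ps39 and Hnrnpa3 had a change of 0.27 at MIA day 28 (0.282) and 0.42 at naive day 28 (0.233), higher in 6 of 6 and 4 of 4 rats. Those of Snrpg and Snrpe with their copies had changes of 0.16 and 0.25 at MIA day 28 and of -0.14 and -0.03 at naive day 28, and none of these passed.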
